A study of Mus musculus with 82 samples.

Results

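Oncostatin M, interleukin-6 (IL-6), interleukin-11 and leukemia inhibitory factor (LIF) signal through receptor complexes that share the subunit gp130, and 6 genes of this family were followed here: the ligand Osm, the shared subunit Il6st (gp130), the gp130 partners Osmr (oncostatin M receptor) and Lifr (LIF receptor), and the ligand-binding chains Il6ra and Il11ra1. They were taken by gene symbol from the 55376 genes of the count tables by a rule that uses no measured value, though the family was picked with earlier results of these data known, and all 6 had counts. The series profiled hematopoietic stem cells (HSCs), sorted from mouse bone marrow through a gate for CD150+ cells that lacked lineage markers, CD34 and Flk2 and carried Sca-1 and c-kit, and asked how their chromatin and transcription change with age. The mRNA-seq covered 30 libraries in 11 groups.

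Young HSCs (YHSC, 4 libraries) came from wild-type C57BL/6J males of 3 to 4 months and old HSCs (OHSC, 8 libraries) from males of 24 to 26 months. A further 12 libraries came from old HSCs that had been transduced with a lentivirus carrying a scrambled control shRNA (shControl) or one of 2 shRNAs (shRNA1, shRNA2) directed at a short variant of Btaf1, a TATA box-binding protein-associated factor, with 2 libraries for each shRNA in each experiment. In the culture experiment GFP+ cells were sorted after 3.5 days with thrombopoietin and stem cell factor. In the transplantation experiment the cells went into irradiated young female recipients together with helper myeloid progenitors, and donor-derived GFP+ HSCs were recovered by a different gate (CD48-, CD150+), with 2 to 4 recipients pooled per library. The last 6 libraries were of common myeloid progenitors (CMP), granulocyte-monocyte progenitors (GMP) and megakaryocyte-erythroid progenitors (MEP), 2 each, from wild-type mice; their labels carry the same Y as YHSC but state no age. Per the study's methods, young HSCs for RNA were pooled from several mice and old HSCs came from single mice, so the spread among YHSC libraries is between pools and that among OHSC libraries between animals. The transplanted replicates were separate pools of recipients. For the cultured and progenitor groups nothing says that replicates came from separate mice, and their p-values measure only the spread between these samples, which may be technical.

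In this family a ligand first meets its specific receptor chain, and signaling starts when gp130 is brought together with a further signaling chain. IL-6 and interleukin-11 bind Il6ra or Il11ra1, which do not signal themselves, and then recruit gp130 alone, whereas LIF uses gp130 with Lifr and mouse oncostatin M uses gp130 with Osmr. The assembled chains activate Janus kinases, above all Jak1, which phosphorylate STAT3, and STAT3 in turn induces its own inhibitor Socs3. In bone marrow, oncostatin M is made mainly by myeloid cells, and gp130 cytokines are known as regulators of HSC maintenance and of megakaryocyte and myeloid output.

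On the mm10 mouse genome (GENCODE M21 annotation), Osmr lies at chr15:6813577-6874969 on the minus strand and Lifr at chr15:7090614-7197489 on the plus strand, 215645 bp apart. Il6st lies at chr13:112464070-112510086 (plus strand), Il6ra at chr3:89864059-89913196 (minus strand), Il11ra1 at chr4:41699989-41769474 (plus strand) and Osm at chr11:4236420-4241026 (plus strand). The Il6ra gene body is overlapped by the antisense gene Gm42809, and that of Il11ra1 by genes including Rpp25l, Dctn3, Arid3c, Galt and Ccl27a, so reads over the shared exons could have been assigned to either gene.

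The central 300 bases of 3 accessible regions are shown because they are the regions of the family called in the age comparison (values below); the Osmr one could be tested only because it was accessible in the old libraries. They are given 5′ to 3′ on the strand of the gene from the mm10 reference; capitals, where present, mark a motif match. The first lies in an Osmr intron (chr15:6861730-6862029, minus strand), the second before Il6st (chr13:112457283-112457582, plus strand), the third in an Osm intron (chr11:4237526-4237825, plus strand), and the last is a 30-base stretch at the RefSeq start of Osmr (chr15:6874293-6874322, minus strand).
Osmr intronic region: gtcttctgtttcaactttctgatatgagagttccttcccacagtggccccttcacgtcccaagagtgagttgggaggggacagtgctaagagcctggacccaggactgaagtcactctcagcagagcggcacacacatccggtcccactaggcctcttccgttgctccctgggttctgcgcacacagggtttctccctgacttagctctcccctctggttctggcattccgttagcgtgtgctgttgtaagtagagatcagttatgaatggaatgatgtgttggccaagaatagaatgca
Il6st upstream region: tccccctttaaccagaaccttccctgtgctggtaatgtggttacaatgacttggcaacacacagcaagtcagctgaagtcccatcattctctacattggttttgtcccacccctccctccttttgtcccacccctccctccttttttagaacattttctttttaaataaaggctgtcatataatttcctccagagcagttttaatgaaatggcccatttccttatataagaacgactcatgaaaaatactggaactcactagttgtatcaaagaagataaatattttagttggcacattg
Osm intronic region: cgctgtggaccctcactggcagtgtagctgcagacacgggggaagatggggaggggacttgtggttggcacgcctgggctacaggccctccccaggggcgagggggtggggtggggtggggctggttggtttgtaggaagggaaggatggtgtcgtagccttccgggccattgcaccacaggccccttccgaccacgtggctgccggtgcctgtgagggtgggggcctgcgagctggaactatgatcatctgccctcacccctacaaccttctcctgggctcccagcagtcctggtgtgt
Osmr start site: ttgccccgtagtTGATTCAtagctggggcg

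The motifs TTCNNNGAA (the STAT site), TGANTCA (the AP-1 site) and TATAAA (the TATA box) were searched on both strands. None of the 3 accessible regions held any of them in these 300 bases, whereas 9.36% (STAT), 11.8% (AP-1) and 13.7% (TATA box) of the 89242 windows of that length at tested regions did. Among promoter windows of the family in RefSeq (GRCm38), one for Osmr, Il6st and Il6ra and 2 each for Il11ra1 and Lifr, the only match was an AP-1 site in Osmr, in capitals in the stretch above, whose first base is base 4 counted from 1 at the RefSeq start. AP-1 matches occurred in 7.81% of 32851 promoters, STAT matches in 8.30% and TATA boxes in 13.6%. A match or its absence describes the letters of these windows and says nothing about binding.

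**Figure D1:**
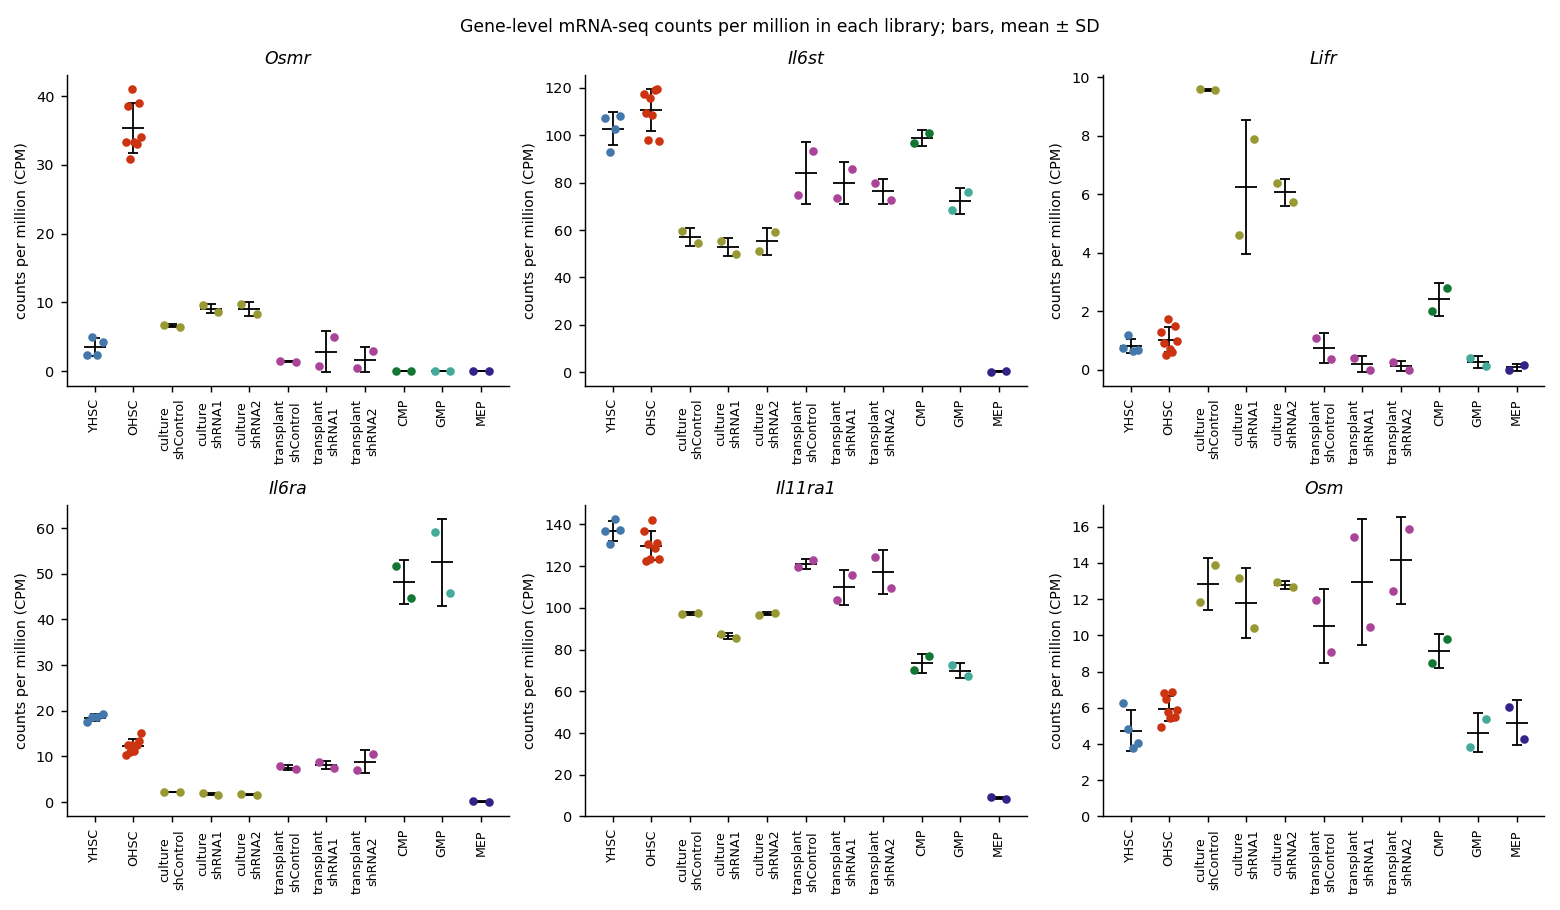
Levels in CPM (counts of the gene per 1000000 gene counts of the library, linear axes) of the 6 genes in each of the 30 mRNA-seq libraries, by group; points are libraries, the horizontal bar is the mean and the whiskers are the SD. Osmr stood at 30.8 to 41.1 CPM in the 8 OHSC libraries and below 10 CPM in all others, and Il6st, Il6ra and Il11ra1 were near the bottom of their range in MEP.

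The 12 YHSC and OHSC libraries held 20475764 to 24654742 gene counts each and the other 18 held 33177394 to 42737054. In the latter only 23.8 to 28.8% of genes with 1 to 20 counts had an odd count, against 55.7 to 60.4% in the former (most low counts were even in the larger libraries). The reason is not known here, so levels are set side by side across them and the one test that crosses them is given last. The 8 HSC markers summed to 4714 to 4778 CPM in YHSC and 4290 to 4740 CPM in OHSC. Markers of other cells differed with age, all of them detected in both groups: 7 B cell markers summed to 103 to 963 CPM in YHSC and 41.9 to 124 in OHSC (Cd79a 12.3 to 31.8 against 0.310 to 1.35), 5 megakaryocyte progenitor markers to 488 to 508 against 856 to 1185, 5 erythroid markers to 160 to 222 against 28.1 to 98.9 (mostly Car1, with means of 141 and 8.11 CPM, while Hba-a1 had the opposite order, 2.45 and 18.9), and 8 granulocyte and monocyte markers to 563 to 657 against 690 to 778 (only Prtn3 had a higher mean in OHSC, 309 against 127 CPM, and the means of the other 7 were lower). The 7 stromal and endothelial markers summed to 34.5 to 40.2 CPM in YHSC and 45.8 to 69.6 in OHSC, most of it Kdr (means 20.2 and 44.3 CPM), while the stromal gene Lepr (0.638 and 1.01 CPM) was low at both ages. Their part in the age results below was not tested. In bulk libraries fewer cells of a type and less RNA per cell cannot be told apart.

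Osmr was about 10-fold higher in old than in young HSCs. The 4 YHSC libraries held 57, 101, 50 and 103 Osmr counts, or 2.30 to 4.93 CPM. In the 8 OHSC libraries the lowest, median and highest levels were 30.8, 33.7 and 41.1 CPM. Every old library was thus above every young one, with mean levels of 3.47 ± 1.33 CPM (SD, n = 4) and 35.4 ± 3.62 CPM (SD, n = 8). The fitted log2 fold change of OHSC over YHSC was 3.39 ± 0.161 (SE), a 10.5-fold difference with an approximate 95% interval of 3.08 to 3.71 on the log2 scale, at an adjusted p of 1.53e-10 in edgeR. Only 24 of the 21522 genes tested had a larger log2 fold change.

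The other receptor chains and the ligand differed far less with age. Osmr was the only 1 of the 6 genes called higher (fold change above 1.5 and adjusted p below 0.05, met by 4.69% of all genes tested in the higher direction), and none was called lower. Il6ra had 17.4, 18.7, 18.6 and 19.2 CPM in the YHSC libraries and 10.3, 12.4 and 15.2 CPM as the lowest, median and highest of OHSC. The Il6ra groups did not overlap, and its log2 fold change was -0.55 ± 0.0883 (SE) at an adjusted p of 4.43e-05, but the 1.46-fold difference was below the threshold of 1.5. Without OHSC replicate 8, the library with the highest Il6ra level, the log2 fold change was -0.59 and Il6ra was called lower.

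The shared subunit Il6st stood at 103 ± 6.98 CPM in YHSC and 111 ± 8.94 CPM in OHSC, with overlapping groups and a log2 fold change of 0.14 ± 0.0620 (SE, adjusted p = 0.112 in edgeR). Il11ra1, the interleukin-11 chain, had 137 ± 4.87 and 130 ± 6.92 CPM and a log2 fold change of -0.04 ± 0.0463 (adjusted p = 0.665). Osm ran from 3.77 to 6.28 CPM in YHSC and from 4.95 to 6.85 CPM in OHSC, again with overlap (log2 fold change 0.37 ± 0.142, adjusted p = 0.0699). Lifr was low at both ages, with 12 to 39 counts per library, 0.808 ± 0.247 CPM in YHSC and 1.03 ± 0.440 CPM in OHSC. Its log2 fold change of 0.38 had a 95% interval from -0.28 to 1.04 (adjusted p = 0.511), so a difference was not detectable at this depth.

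Levels of different genes can be compared per kilobase of exon. On that scale Il11ra1 led in YHSC with 30.6 CPM per kb, followed by Il6st with 9.26, Il6ra with 2.14, Osm with 2.09, Osmr with 0.287 and Lifr with 0.0750. In OHSC the Osmr level was 2.92 CPM per kb, above those of Il6ra (1.42) and Osm (2.62) but still below that of Il6st (9.97).

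**Figure D2:**
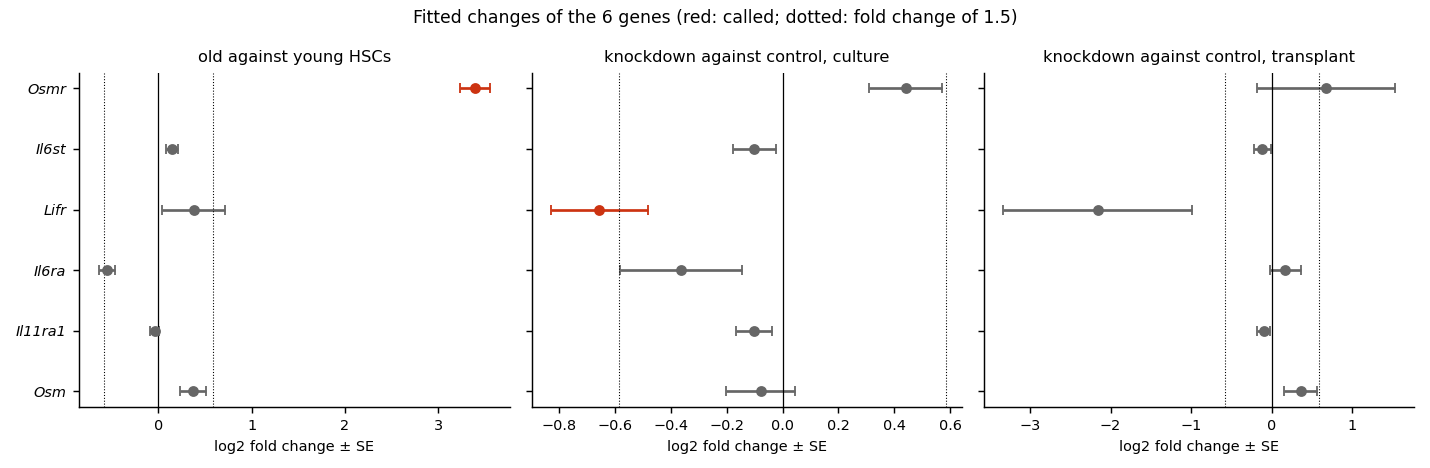
Fitted log2 fold changes (points) with their standard errors (whiskers) of the 6 genes between old and young HSCs, and between Btaf1 knockdown and control HSCs in culture and after transplantation; red points passed the call rule of that comparison and dotted lines mark a fold change of 1.5. Osmr at 3.39 in the left panel and Lifr at -0.66 in the middle panel were the 2 called values.

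The pathway around the receptors was examined with 57 genes in 5 lists, of which 51 were tested, 6 were called higher and 5 lower in OHSC, or 21.6% of those tested against 7.52% of all genes. Of the 16 kinases, STATs and adaptors none was called in edgeR, although 2 had an adjusted p below 0.05 with a smaller fold change, and Stat3 itself had 388 ± 16.0 CPM in YHSC and 530 ± 15.8 CPM in OHSC, a log2 fold change of 0.49 that was below the fold threshold. Among 9 inhibitors, Socs3 rose from 11.8 ± 4.29 to 50.5 ± 13.5 CPM (log2 fold change 2.13 ± 0.285, adjusted p = 0.000264 in edgeR), while Socs2 fell from 57.4 ± 4.72 to 17.2 ± 2.78 CPM (-1.70 ± 0.0992, adjusted p = 3.64e-10). Cish, which like Socs2 is best known as a STAT5 target, fell as well (-0.82 ± 0.228, adjusted p = 0.0268).

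Of 18 genes listed as STAT3 targets, 17 were tested, 5 were called higher and 1 lower. Over all genes 4.69% were called higher and 2.83% lower. The list was chosen with earlier results of these data known, and STAT3 activity was not tested. Bcl6, a transcriptional repressor, rose from 6.56 ± 1.17 to 15.6 ± 3.89 CPM (log2 fold change 1.29 ± 0.213, SE, adjusted p = 0.000532 in edgeR) and Bcl3, an IκB-like coregulator, from 26.5 ± 4.49 to 53.4 ± 8.71 CPM (1.05 ± 0.143, adjusted p = 0.000144). Cebpb, a C/EBP factor of myeloid cells, rose by 0.75 ± 0.0540 (adjusted p = 2.37e-10). Vegfa, an angiogenic growth factor, fell (-0.91 ± 0.0917, adjusted p = 6.02e-08). The median log2 fold change of the tested targets was 0.22, against -0.01 over all genes.

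Among the 7 tested IL-6 family ligands Ebi3, a subunit of interleukin-27, fell from 84.5 ± 1.58 CPM in YHSC to 17.9 ± 2.06 CPM in OHSC (-2.20 ± 0.0669, adjusted p = 4.41e-17 in edgeR). Il31ra, the receptor for interleukin-31 and a neighbour of Il6st that pairs with Osmr, fell from 1.29 ± 1.01 to 0.386 ± 0.190 CPM (-1.71 ± 0.442, adjusted p = 0.00635). Il31ra was thus low in HSCs of either age, and its young level ran from 0.544 to 2.74 CPM. Il6, Il11 and Lif themselves stayed under 1 CPM on average in both groups and were not called.

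**Figure D3:**
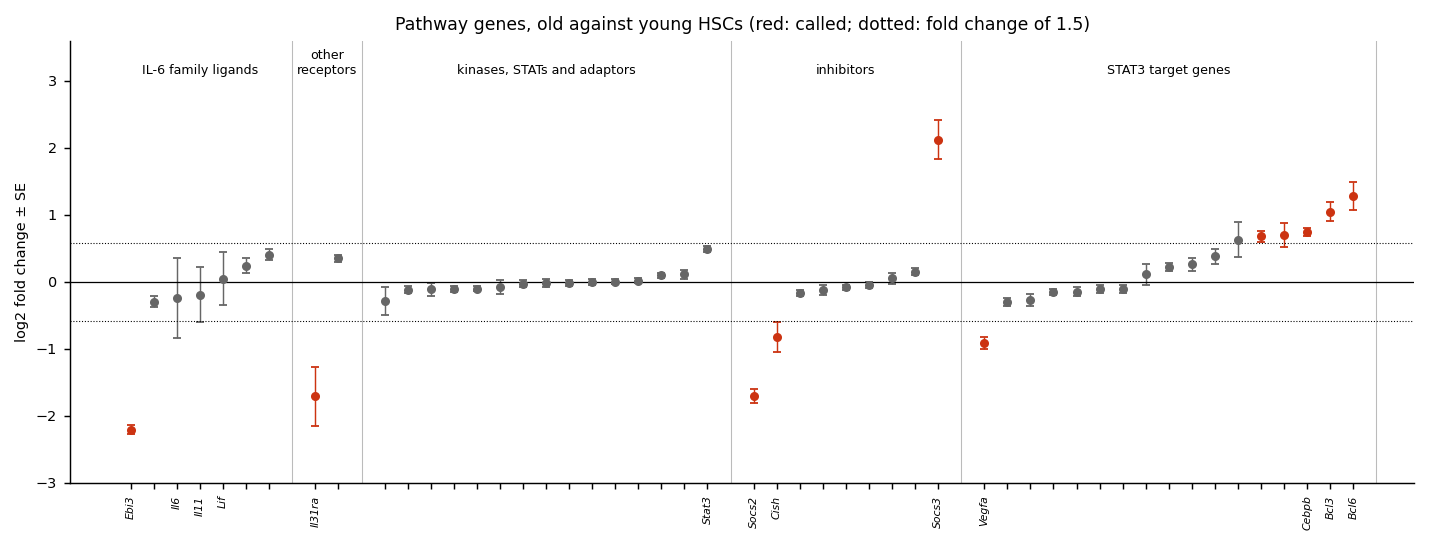
Log2 fold changes of OHSC over YHSC with standard errors for 50 of the 51 tested genes of the 5 pathway lists, sorted within each list; red points were called, dotted lines mark a fold change of 1.5 and the genes described in the text are named. Socs3 (2.13) was the highest point and Ebi3 (-2.20) the lowest, and all kinases, STATs and adaptors shown are grey.

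Genes next to the family on the chromosome were also examined. Around the 6 genes, the 3 nearest protein-coding genes on each side gave 30 neighbours that are not members, of which 26 were tested, 1 was called higher and 3 lower (4.69% and 2.83% of all genes). The higher one was Fyb, an adaptor of hematopoietic cells 150264 bp from Osmr, with a log2 fold change of 1.57 ± 0.0688 (adjusted p = 2.05e-13 in edgeR). Rictor, only 13176 bp from Osmr, had a log2 fold change of 0.08 and was not called, and neither was Lifr on the other side. The lower ones were Enho near Il11ra1, and Ddx4 and Il31ra near Il6st (-1.44 and -1.71).

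Chromatin at the family was read in the same 2 age groups. ATAC-seq, in which a transposase cuts accessible DNA, gave 8 libraries (4 YHSC, 4 OHSC) of 15427933 to 26260337 counts over 127695 regions. The 6 genes and the 10 kb before each held 50 regions, 41 passed the filter of more than 1.5 CPM in at least 4 libraries, and 3 were called, all higher in OHSC. Over all 89245 regions tested, 10.1% were called higher (fold change above 1.5, adjusted p below 0.01), so the share among the family's regions was no larger than the background, and the median log2 fold change was -0.13 over the 41 regions and -0.01 over all.

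At Osmr, the region over the annotated start had 21.1, 21.2, 22.04 and 20.6 CPM in the YHSC libraries and 31.8, 31.9, 29.2 and 28.6 CPM in the OHSC libraries, so the groups did not overlap. Its log2 fold change was 0.50 ± 0.0663 (SE, adjusted p = 1.39e-08 in edgeR), a 1.42-fold difference that missed the fold threshold. A region 7300 bp before the start had a log2 fold change of 0.47 (adjusted p = 0.00150), likewise under the fold threshold. The intronic region 13090 bp into the gene, whose sequence opens with gtcttctg above, had 1.34, 0.778, 1.08 and 1.22 CPM in YHSC and 2.00, 2.93, 2.90 and 1.95 CPM in OHSC, and was called (1.11 ± 0.239, adjusted p = 0.000197). None of its young libraries exceeded 1.5 CPM, so it entered the test through the old libraries alone and had to differ; its call is not counted as support.

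The region 6638 bp before Il6st went from 2.13 ± 0.156 to 5.07 ± 0.505 CPM (SD, n = 4 each), with a log2 fold change of 1.24 ± 0.170 (adjusted p = 3.82e-08 in edgeR). The region over the Il6st start had a log2 fold change of -0.03 (adjusted p = 0.755). The region 1255 bp into Osm, in an intron, went from 7.40 ± 0.496 to 11.5 ± 1.36 CPM (0.62 ± 0.109, adjusted p = 7.60e-06), just above the threshold. Without YHSC replicate 1 or OHSC replicate 7 the Osm value was 0.58 or 0.57 and the region was not called. No region of Lifr (8 tested), Il6ra (7) or Il11ra1 (16) was called, and the 16 of Il11ra1 had a median log2 fold change of -0.17.

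**Figure D4:**
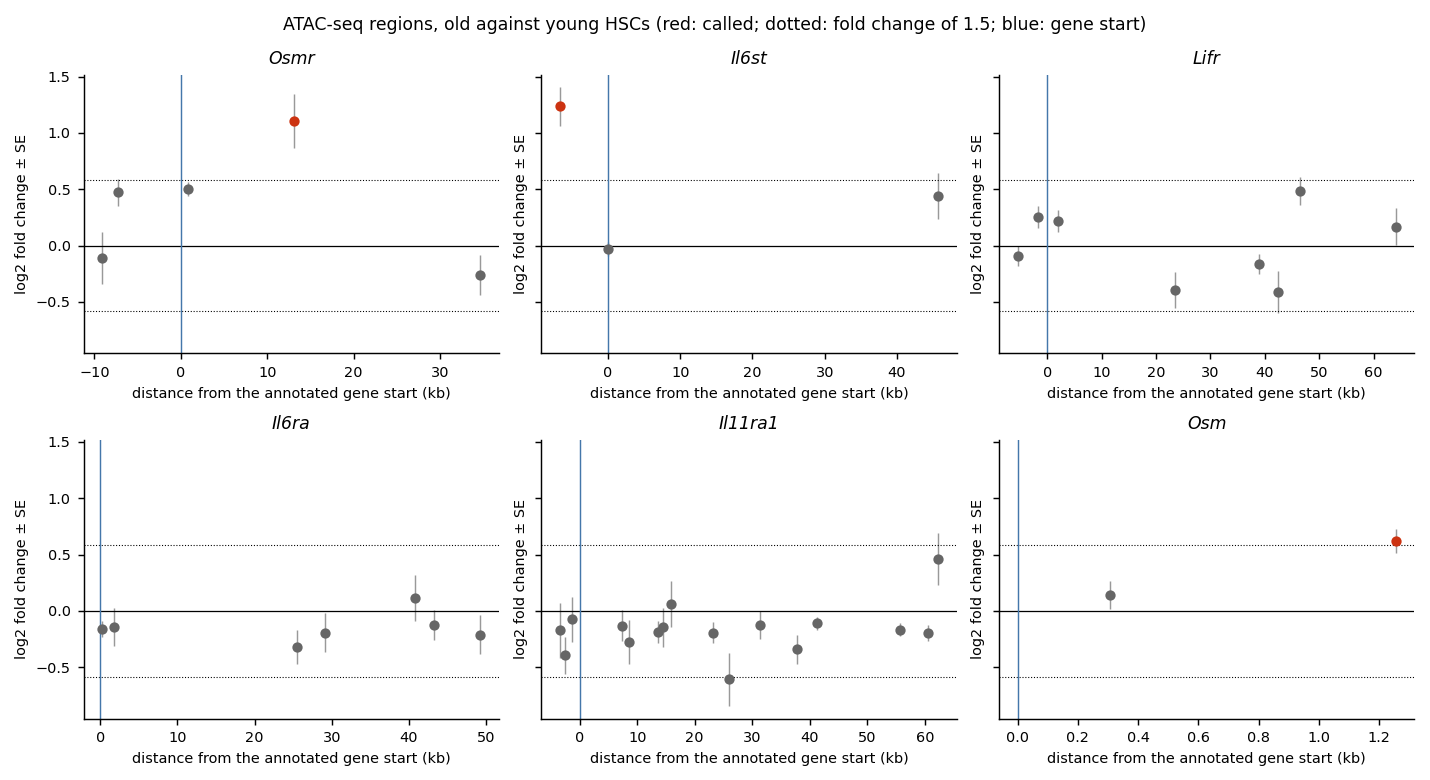
ATAC-seq log2 fold changes of OHSC over YHSC with standard errors for the 41 tested regions, against the distance of the region from the annotated gene start (negative values lie before the gene). The 3 red points, called, lay 13090 bp into Osmr, 6638 bp before Il6st and 1255 bp into Osm, and the start region of Osmr lay at 0.50 under the dotted line of a 1.5-fold change.

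Acetylation of histone H3 at lysine 27 (H3K27ac), a mark of active promoters and enhancers, was available for 2 libraries at each age as a signal per peak. The peak over the Osmr start (chr15:6873197-6874984) had signals of 1.29 and 1.28 in YHSC and 2.79 and 3.45 in OHSC. The mean ratio was 2.43 and the smallest of the 4 old-to-young pairings 2.16, whereas the median ratio of all 39557 peaks was 1.04. Under the rule of a ratio above 1.5 with every pairing at least 1.2, met in the higher direction by 9.11% of peaks, the Osmr peak was the only 1 of 7 called, and in limma it had a log2 difference of 1.02 on log2(signal + 0.5) at an adjusted p of 0.00162.

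The other 6 peaks were not called. The promoter peaks of Il6st, Il11ra1 and Osm had ratios of 0.941, 1.16 and 1.26, and the 3 peaks of Il6ra had 0.857, 0.889 and 0.922. No H3K27ac peak carried the name of Lifr.

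**Figure D5:**
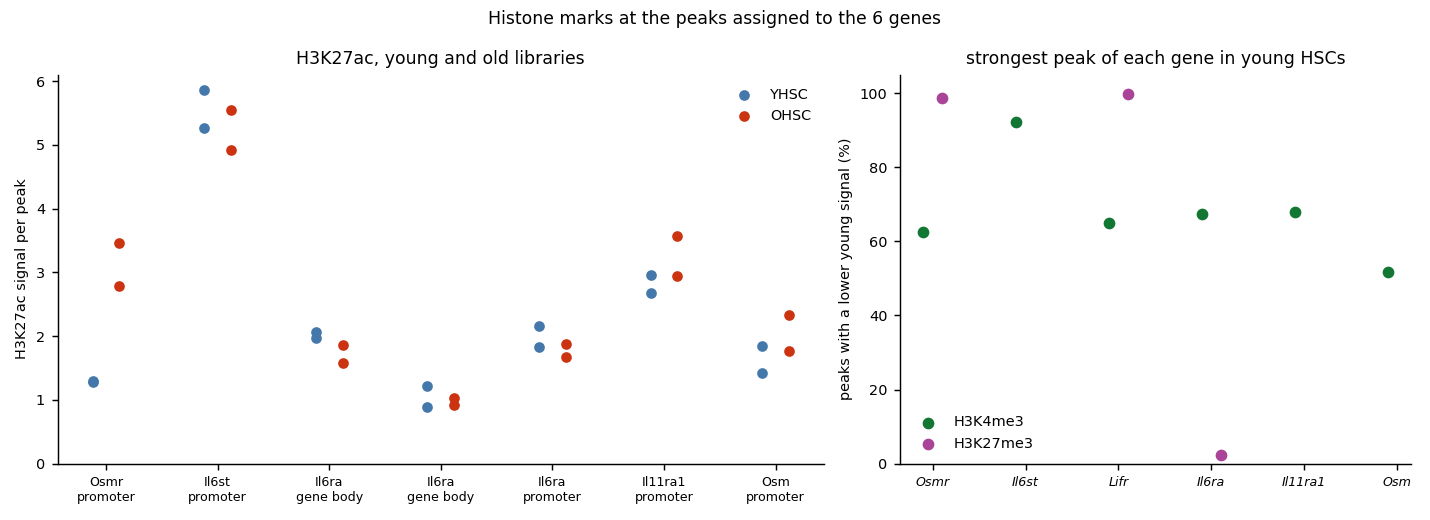
Left, H3K27ac signal per peak (linear axis) in the 2 YHSC and 2 OHSC libraries for the 7 peaks assigned to the family; right, the share of all peaks of H3K4me3 and of H3K27me3 with a lower young signal than the strongest peak of each gene. The old signals at Osmr (2.79 and 3.45) lay above the young ones (1.28 and 1.29), and for H3K27me3 Lifr and Osmr stood above 99.7% and 98.6% of domains.

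In young HSCs the promoters of the family differed in their mix of an active and a repressive mark. Trimethylation of H3 at lysine 4 (H3K4me3), found at active or poised promoters, was highest at Il6st with a mean signal of 24.3, followed by Il11ra1 (12.8), Il6ra (12.5), Lifr (11.3), Osmr (10.1) and Osm (5.86), where the median of 33199 peaks was 5.37. The H3K4me3 peak of Lifr (chr15:7128645-7130624) lay inside the annotated gene, over a start that RefSeq gives.

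Trimethylation at lysine 27 (H3K27me3), the mark of Polycomb repression, set Osmr and Lifr apart. A domain assigned to Lifr (chr15:6899000-7273999) had a signal of 1.96 in YHSC, above 99.7% of the 55820 domains, and the Osmr domain (chr15:6815000-6892999) had 1.16 and 1.24 in its libraries, their mean above 98.6%. Both covered the start of their gene. The single domain named for Il6ra had 0.168, above 2.30% of domains, and none was named for Il6st, Il11ra1 or Osm.

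Domains of H3K36me3, a mark laid down over transcribed gene bodies, came as 1 list that pools the ages. They covered 91.9% of the Osmr gene body and 95.6% of that of Il6st, but 1.87% of that of Lifr. Il6ra, Il11ra1 and Osm were covered over 75.3%, 66.9% and 65.1% of their length.

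The knockdown experiments asked what follows when the short Btaf1 variant is reduced in old HSCs. Counts for Btaf1 as a whole do not separate the variant. In culture they were 110 to 119 CPM in the knockdown libraries and 137 to 141 CPM in the controls. After transplantation they were 118 to 139 against 161 to 165 CPM. The log2 fold changes were -0.31 in culture (adjusted p = 0.00151 in edgeR) and -0.37 after transplantation (unadjusted p = 0.000891, adjusted p = 0.791).

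In culture Lifr fell on knockdown under the unadjusted rule given below. Lifr had 9.59 and 9.55 CPM in the controls, 4.62 and 7.88 CPM with shRNA1 and 6.38 and 5.74 CPM with shRNA2. The log2 fold change over the 4 knockdown libraries was -0.66 ± 0.173 (SE) at an unadjusted p of 0.00205 and an adjusted p of 0.0565 in edgeR. Under the rule of a fold change above 1.5 at an unadjusted p below 0.05, met in the lower direction by 0.972% of all genes, Lifr was the only 1 of the 6 called. With shRNA1 and shRNA2 taken singly the values were -0.65 and -0.66. Without shRNA1 replicate 1, the library with the lowest level, the log2 fold change was -0.54 and Lifr was no longer called, nor was it by adjusted p in the fit over both shRNAs. Markers of other cells also differed from the controls. Nkg7 was the only detected gene of the 3 T and NK cell markers (Cd3e and Cd3g were at 0). It had 35.8 to 37.4 CPM in the controls, 18.7 to 19.0 with shRNA1 and 21.97 to 25.1 with shRNA2. The 8 granulocyte and monocyte markers summed to 388 to 397 CPM in the controls. The sum was lower with shRNA1 (364 to 365) and higher with shRNA2 (508 to 512). Of these 8 markers, 3 had no reads in the controls and 2 had none with each shRNA. The part of all these markers in the Lifr result was not tested.

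Osmr in culture had 6.72 and 6.44 CPM in the controls, 9.56 and 8.59 CPM with shRNA1 and 9.71 and 8.30 CPM with shRNA2. Its log2 fold change was 0.44 ± 0.131 (unadjusted p = 0.00437, adjusted p = 0.0904 in edgeR), 1.36-fold and under the threshold, with 0.44 and 0.45 for the 2 shRNAs. Il6st, Il6ra, Il11ra1 and Osm had log2 fold changes of -0.10, -0.37, -0.10 and -0.08, none of them called. Of the 51 pathway genes tested, 3 were called, all higher (2.45% of all genes were called higher and 3.42% in either direction). They included Bcl6, from 0.666 ± 0.183 CPM in the controls to 2.15 ± 0.420 with shRNA1 and 1.83 ± 0.248 with shRNA2 (1.55 ± 0.296, adjusted p = 0.00925) and the weakly expressed ligand gene Il6 (1.61, adjusted p = 0.228).

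After transplantation none of the 6 genes was called in the main edgeR fit or in DESeq2. In either direction 2.24% of all genes met the rule. None of the 6 had an unadjusted p below 0.05 in that edgeR fit. Osmr was uneven between replicates: the controls had 1.42 and 1.38 CPM, shRNA1 had 0.732 and 4.93 CPM and shRNA2 had 0.403 and 2.95 CPM. For both shRNAs replicate 1 was thus below and replicate 2 above the controls, and the log2 fold change was 0.67 ± 0.855 (SE, unadjusted p = 0.453). Without shRNA1 replicate 2 the value was -0.05. Markers of other cells varied too. The 3 macrophage markers summed to 0.638 to 0.712 CPM in the controls, 0.738 to 1.05 with shRNA1 and 0.622 to 12.1 with shRNA2. One of them, Cx3cr1, had no reads in the controls. The 8 granulocyte and monocyte markers summed to 655 to 815, 571 to 1023 and 836 to 892 CPM. The part of these markers in the Osmr levels was not tested.

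Lifr counts after transplantation were 46 and 14 in the controls, 16 and 0 with shRNA1 and 10 and 0 with shRNA2. The log2 fold change was -2.16 ± 1.17 (SE), with a 95% interval of -4.45 to 0.13 (unadjusted p = 0.0973 in edgeR). Without shRNA1 replicate 1 it was -3.07 and called. Lifr was also called with replicate number as a block. Il6st, Il6ra, Il11ra1 and Osm had values of -0.12, 0.17, -0.10 and 0.36. Of the 50 pathway genes tested after transplantation none was called, where 2.24% of all genes were. The difference between the knockdown effects after transplantation and in culture was tested directly. On simulated data this test recovered 46.5% of genes changed 2-fold, fewer than the tests of age or of either knockdown. None of the 52 pathway genes tested passed at an adjusted p below 0.05. None of the 6 genes passed (adjusted p below 0.05, 0.210% of all genes in edgeR, a count that other settings moved to between 1 and 299 genes; 0 of 6 in DESeq2 and 0 of 6 at an unadjusted p below 0.05), with -1.50 for Lifr (adjusted p = 0.732) and 0.23 for Osmr (adjusted p = 0.979).

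Among the conditions, the levels of Osmr fell in the order OHSC, cultured shRNA1, cultured shRNA2, cultured control, YHSC, transplanted shRNA1, shRNA2 and control, and the 3 progenitors. The ranges of neighbours overlapped from YHSC through transplanted control and between the 2 cultured shRNAs. The old HSCs recovered from recipients therefore had Osmr levels (0.403 to 4.93 CPM) in or below the range of fresh young HSCs, and those in culture had 6.44 to 9.71 CPM, although sort, transduction and library set differed and their part was not tested. Lifr had its highest level in culture (9.57 ± 0.0335 CPM in the controls) and Il6ra its lowest HSC levels there (mean 2.20 CPM in the controls, 1.80 with shRNA1 and 1.66 with shRNA2). In the cultured controls the HSC markers summed to 1897 to 1934 CPM, below their level in fresh HSCs, and the megakaryocyte progenitor markers to 1252 to 1288 CPM, above it. After transplantation the controls had 3522 to 3595 and 429 to 610 CPM. The part of these shifts in the levels of the family was not tested.

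Osmr was not detected in any progenitor. All 6 libraries had 0 counts in 33177394 to 36510850, and a floor of 3 counts over each group corresponded to 0.0416 CPM in CMP, 0.0437 in GMP and 0.0423 in MEP. Set against these floors, the YHSC mean was at least 83.6-fold, 79.5-fold and 82.0-fold higher, and the OHSC mean at least 851-fold, 810-fold and 835-fold higher. Since most low counts of the progenitor libraries were even, a floor of 6 counts was also taken, which gave at least 41.8-fold, 39.7-fold and 41.0-fold for YHSC and at least 426-fold, 405-fold and 418-fold for OHSC. These floors cover counting error only and not differences between library sets. Genes with counts numbered 37847 to 42062 in YHSC and 32867 to 42539 in OHSC libraries, against 21375 to 23405 in the deeper progenitor libraries. The part of the library sets in these folds was not tested.

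In MEP the transcripts of gp130 and both ligand-binding chains were far below those in CMP and GMP. In MEP, Il6st had 8 and 22 counts (0.424 ± 0.281 CPM) against 98.8 ± 3.22 CPM in CMP and 72.3 ± 5.50 in GMP. Il6ra had 6 and 0 counts in MEP and was highest of all groups in GMP (52.5 ± 9.51 CPM) and CMP (48.2 ± 4.89), whose ranges overlapped. Il11ra1 had 8.89 ± 0.609 CPM in MEP, 73.5 ± 4.61 in CMP and 69.9 ± 3.53 in GMP.

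In the comparison of MEP with CMP 5 of the 6 genes were called, all lower, where 29.2% of all genes tested were called lower. The log2 fold changes were -8.98 ± 0.369 (SE) for Il6ra, -7.74 ± 0.185 for Il6st, -4.65 ± 0.777 for Lifr, -2.93 ± 0.0941 for Il11ra1 and -0.70 ± 0.222 for Osm, with adjusted p-values from 2.25e-12 to 0.0138 in edgeR. Those of Il6ra and Lifr rest on 6 counts in MEP and are rough. Between MEP and GMP (27.2% lower) Il6ra, Il6st and Il11ra1 were lower by -9.32, -7.51 and -3.08. Between GMP and CMP (10.5% lower) Lifr (-2.97 ± 0.659, adjusted p = 0.00389) and Osm (-0.76 ± 0.225, adjusted p = 0.0182) were lower. Lifr (73 and 100 counts in CMP, 14 and 4 in GMP, 0 and 6 in MEP) passed the count filter through CMP alone. Il6ra, with 6 and 0 counts in MEP, passed it through CMP and GMP. The calls of both genes against the groups where they were high are not counted as support. The Osm calls were lost without CMP replicate 2 (-0.62 in MEP, -0.67 in GMP), without MEP replicate 2 (-0.48) and, for GMP, without GMP replicate 1 (-0.54).

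The MEP libraries were also low in other parts of the pathway. Of 50 pathway genes tested, 29 were lower and 3 higher in MEP than in CMP, where 29.2% of all genes were lower and 17.5% higher. Stat3 had 39.1 ± 3.63 CPM in MEP and 278 ± 47.9 in CMP (-2.71 ± 0.195, adjusted p = 0.000198 in edgeR), and the inhibitor Socs1 (-5.12) was lower too. The 3 that were higher included the adaptors Gab1 (1.60) and Shc1 (0.92), named here after their values were seen. Erythroid markers (5 of 5 detected) summed to 6300 to 6725 CPM in MEP, 366 to 385 in CMP and 9.32 to 15.8 in GMP, and granulocyte and monocyte markers (8 of 8) to 35.4 to 61.8, 16428 to 19782 and 56959 to 57951 CPM. Megakaryocyte progenitor markers summed to 24.3 to 25.1 CPM in MEP, 36.8 to 69.8 in GMP and 565 in CMP. In MEP 4 of the 5 had reads, led by Vwf (16.2 CPM) and Gp9 (5.11 CPM), and Gp1bb was at 0.

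Young HSCs and progenitors were sequenced to different depths and differ in their share of odd counts, so cell type and library set cannot be told apart, and the median log2 fold change of all genes was 0.49, 0.70 and 1.11 for YHSC over CMP, GMP and MEP. These medians moved with the processing, to 0.25, 0.41 and 0.69 with counts halved in the libraries of mostly even counts, 1.87, 1.65 and 2.17 in DESeq2 and 1.90, 2.40 and 2.44 without the count filter. In edgeR 4, 2 and 6 of the 6 genes were called (5, 2 and 5 in DESeq2), where 64.3%, 71.3% and 77.2% of all genes were. Each of these counts includes Osmr, which had no counts in any progenitor library. Osmr thus entered the test through YHSC alone and had to differ, so its calls are not counted as support. Il6ra was lower in YHSC than in CMP and GMP (-1.74 and -2.06) and higher than in MEP (7.23), and Il11ra1 had log2 fold changes of 0.54, 0.42 and 3.47. Il6st differed by 7.44 from MEP but by -0.30 from CMP and -0.04 from GMP, the last with a sign that turned to 0.05 with DESeq2 size factors. Lifr had -1.93, 1.06 and 2.72 and Osm -1.30, -0.51 and -0.60. The CPM levels given above are not TMM-scaled, and scaling multiplied them by 0.889 in YHSC, 1.11 in CMP and 1.25 in GMP. On the plain CPM scale Il6st was higher in YHSC (103) than in CMP (98.8) and GMP (72.3), and Osm was 4.74 in YHSC and 4.63 in GMP, so no direction is drawn for these 3 differences.

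As a description of which genes ran parallel to the family, Pearson correlations of log2(CPM + 1) over the 30 libraries were ranked among 15938 genes. These points share libraries, cell types and counting sets, which alone can align genes. The closest to Osmr were Shisa7 (0.962), Efemp2 (0.960), Synpo (0.958), Lrrn1 (0.954) and Prkcz (0.954). Their log2 fold changes in OHSC over YHSC were 2.19, 1.64, 1.75, 2.15 and 1.91, a direction largely fixed by choosing them for likeness to Osmr over these libraries. Il6st was closest to Abr (0.990) and Gmpr (0.984), Lifr to Gm48342 (0.916), Il6ra to Rasa4 (0.982) and Bckdha (0.970), Il11ra1 to Cers5 (0.992) and Atp8b2 (0.992), and Osm to Sept7 (0.908) and Tmx2 (0.903). Within the family the closest pair was Il6st and Il11ra1 (0.959), whereas Osmr had 0.416 with its signaling partner Il6st and -0.10 with its ligand Osm.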

How the data were processed

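mRNA-seq libraries were made with SMART-Seq kits, which do not mark strand (another kit version for transplanted than for fresh HSCs), and the authors aligned the reads to mm10 with STAR and counted genes of GENCODE M22 with featureCounts (settings not stated); gene coordinates here are from GENCODE M21. The deposited RNA and ATAC tables held raw counts. The deposited histone tables held signal per peak (BWA, MACS2; libraries scaled by the authors to 10000000 reads); the sources do not state the summary used within a peak. The authors' fold and comparison columns were not used, nor were 8 columns of per-sample values (4 ATAC, 4 histone).

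Genes were tested with edgeR 4.0.16 (robust quasi-likelihood, TMM, filterByExpr, Benjamini-Hochberg) over all genes, and H3K27ac with ratios and limma 3.58.1 in R 4.3.3; DESeq2 1.42.0 was an alternative. Calls required more than a 1.5-fold difference, except in the test between the knockdown experiments (adjusted p alone). The p limit was 0.05 (adjusted) for age and progenitors, 0.05 (unadjusted, looser than the FDR the study's methods name for gene lists) for the knockdown and 0.01 (adjusted) for ATAC regions, which also had to exceed 1.5 CPM in 4 libraries. CPM is scaled to the gene counts of the library. The standard error is the log2 fold change over the root of F. On simulated data with 200 genes changed 2-fold, 70.5% were recovered in the age comparison, 85% in the cultured and 73.5% in the transplanted knockdown, with 7, 295 and 431 false calls.

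The members and lists were chosen with earlier results of these data known. Named genes were the 6 members, up to 4 called genes per pathway list by size in the age comparison and up to 3 elsewhere; Stat3, Il6, Il11 and Lif are given for their roles and were chosen after their values were seen. Some genes that this rule names are not reported here. No pair of libraries agreed within sampling noise (lowest chi-square per gene 4.42). Il11ra2, a near-copy of Il11ra1, had 0 to 1 counts in YHSC and OHSC and at most 116 elsewhere; how reads shared by the copies were assigned is uncertain.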

Additional observations from a re-analysis of the deposited data

How the results depend on the processing

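Osmr in OHSC over YHSC ran from 3.25 to 3.58 on the log2 scale over 19 alternatives and was called in each of them, and its H3K27ac ratio ran from 2.03 to 2.69. Of the log2 fold changes recomputed, 962 kept their direction and call, 17 gained and 20 lost the call, and 25 reversed. The cause of these shifts was not tested.

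Counts of called members moved as follows. With a fold change of 1.2 the age count was 2, the cultured count 2 and the counts of YHSC against GMP and CMP 4 and 6. With a fold change of 2 the cultured count was 0, that of GMP against CMP 1, of MEP against CMP 4, of YHSC against MEP 5 and of ATAC regions 2. With adjusted p the cultured count was 0. Leaving out 1 library gave 1 to 2 for age, 0 to 1 in culture, 0 to 1 after transplantation, 1 to 2 for GMP against CMP, 2 to 4 for YHSC against GMP and 1 to 3 for ATAC regions.

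Same-numbered samples deviated together weakly at most (correlations from -0.125 to 0.207, the highest between CMP and GMP), so replicate numbers were not taken as pairs. With a replicate block the age count was 2 (Il6ra, -0.65) and the transplanted count 1 (Lifr, -3.01), Osmr reversed to -0.0223 after transplantation and -0.32 in the difference between experiments, and 1421 genes were called with age in place of 1618.

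Reversals on leaving out 1 library were seen for Osmr after transplantation (-0.0516 to 1.02) and in the difference between experiments (-0.49 to 0.57), Il6st after transplantation (-0.27 to 0.0527), in that difference (-0.17 to 0.16), against GMP (-0.11 to 0.0222) and at its start region (-0.0815 to 0.0180), Il11ra1 in that difference (-0.0480 to 0.0432), Osm in culture (-0.19 to 0.0378) and between MEP and GMP (-0.21 to 0.32), and the Il6ra gene-body H3K27ac ratio (0.798 to 1.09). Il6st in YHSC against GMP was 0.0484 with DESeq2 and 0.0473 with its size factors.

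Over all genes, fold thresholds of 1.2 and 2 gave 3045 and 873 age calls, 1544 and 314 cultured calls (676 at 1.5, 179 with adjusted p, 1066 without the count filter) and 825 and 280 transplanted calls (455 at 1.5, 0 with adjusted p, where edgeR had 1138 genes at an unadjusted p below 0.05). The test of the difference between experiments gave 45 genes in edgeR, 299 in DESeq2, 94 without the count filter, 13 with the replicate block, 1 without either cultured shControl library and 117 without transplanted shRNA1 replicate 2. Halving the counts of the libraries with mostly even counts and the floor of 6 counts were added after seeing the data. Depth limits Lifr, at under 50 counts per fresh or transplanted HSC library, and Osmr, Il6ra and Lifr in MEP.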
